A study of Mus musculus with 2 samples.

Results

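The gene Cd4 and its surroundings were examined in DNase-seq data from mouse thymus. The assay treats nuclei with DNase I, an enzyme that reaches DNA where chromatin is open. Stretches with many cuts were called as peaks, and short stretches within open DNA that were spared from cutting were called as footprints. The peaks and footprints were those in the annotated body of Cd4 and the 50 kb on each side of it, and peaks of a library that shared at least 1 bp were joined into regions. This window held 43 of the 129122 regions of replicate 1 and 31 of the 68662 regions of replicate 2. It also held 187 of 375374 footprints in replicate 1 and 124 of 210014 in replicate 2. The 2 libraries came from the thymus tissue of separately numbered female mice of the B6CASTF1/J strain, F1 hybrids of C57BL/6J and CAST/EiJ, at the age of 10 days, with no treatment named. The labels give both samples the same donor identifier, read here as that of the strain, so that SDs over n = 2 are between animals only under this reading. The libraries formed 1 group of 2 biological replicates, and no control or sorted cells were analysed here.

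CD4 is the coreceptor with which helper T cells and many thymocytes bind MHC class II molecules, and its tail carries the kinase Lck to the T cell receptor. In the thymus, cells pass from a stage without CD4 and CD8 through a stage with both coreceptors to cells that keep either CD4 or CD8. Cd4 transcription is known to be driven by enhancers, the best studied of which lies upstream of the gene, and to be shut off in CD8 cells by a silencer in the first intron to which RUNX proteins bind. The files do not mark the limits of these elements. Each region is therefore called here by the distance of its midpoint from the Cd4 start, counted in the direction of Cd4 transcription, with negative distances upstream towards Lag3.

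Cd4 (ENSMUSG00000023274.14) lies on the minus strand at chr6:124864692-124888221 in mm10 (GRCm38), by the GENCODE M21 annotation. It is 23530 bp long with 10 exons, and its first intron spans 8386 bp. The window covers chr6:124814692-124938221. Upstream of Cd4 lie Lag3, an inhibitory receptor related to CD4 that also binds MHC class II, then Ptms and Mlf2. Downstream lie Gpr162, whose start is 709 bp past the Cd4 end, then P3h3, Gnb3, Cdca3 and Usp5.

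The sequences at the Cd4 start, at the 3 regions of the gene body found in both replicates and at the highest region between Cd4 and Lag3 are shown here because the footprints described later lie in them. Each was read from the RefSeq GRCm38.p6 genome on the minus strand, 5′ to 3′, over the middle 200 bp of the part shared by the replicates, leaving out untranslated exon bases. In the sequence of the Cd4 start, capitals mark bases inside a footprint of either replicate, since no base of it lay in footprints of both. In the other 4 sequences, capitals mark bases inside footprints of both replicates.
Cd4 start, −109 to −1 bp, chr6:124888222-124888330: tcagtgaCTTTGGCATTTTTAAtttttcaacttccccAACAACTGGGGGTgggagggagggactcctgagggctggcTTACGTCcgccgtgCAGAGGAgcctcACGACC
Region at +1.94 kb in the first intron, chr6:124886191-124886390: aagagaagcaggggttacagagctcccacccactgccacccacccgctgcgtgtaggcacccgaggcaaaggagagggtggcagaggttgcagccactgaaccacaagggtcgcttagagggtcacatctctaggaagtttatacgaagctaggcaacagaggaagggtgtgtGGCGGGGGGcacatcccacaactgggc
Region at +2.87 kb in the first intron, chr6:124885251-124885450: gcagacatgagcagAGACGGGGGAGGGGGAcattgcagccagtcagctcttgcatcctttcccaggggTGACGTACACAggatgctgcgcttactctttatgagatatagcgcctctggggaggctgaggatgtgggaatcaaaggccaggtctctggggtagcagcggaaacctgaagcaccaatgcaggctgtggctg
Region at +8.67 kb, from the start codon into exon 3, chr6:124879461-124879654: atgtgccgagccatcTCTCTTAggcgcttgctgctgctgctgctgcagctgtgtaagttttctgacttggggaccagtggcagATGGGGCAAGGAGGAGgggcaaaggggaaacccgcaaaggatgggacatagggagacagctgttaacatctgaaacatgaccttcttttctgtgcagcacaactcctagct
Region at −15.5 kb, chr6:124903651-124903850: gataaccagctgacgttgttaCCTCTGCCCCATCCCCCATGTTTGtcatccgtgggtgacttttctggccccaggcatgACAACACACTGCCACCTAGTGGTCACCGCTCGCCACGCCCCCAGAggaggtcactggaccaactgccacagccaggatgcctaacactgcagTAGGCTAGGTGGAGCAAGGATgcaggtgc

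Between Lag3 and Gpr162 the tallest open chromatin lay upstream of Cd4 and not at the Cd4 start. Heights are the authors' deposited peak heights, a scaled cutting signal without a unit, to which no counting error can be attached because the depth is unknown. The Cd4 start was covered by a region with a height of 2.88 in replicate 1 and 1.51 in replicate 2. The region at −15.5 kb reached 15.3 in replicate 1 and 14.4 in replicate 2, and the region at −12.3 kb reached 6.31 and 7.35. Within the first intron, the region at +2.87 kb had heights of 4.09 and 3.47 and the region at +1.94 kb had 2.24 and 2.22. The order of −15.5 kb, −12.3 kb, +2.87 kb and the Cd4 start, from high to low, was the same in both animals. The Cd4 start and the region at +1.94 kb changed places between the animals and do not differ beyond their spread. Other regions changed places too, such as +8.67 kb (3.03 and 3.67) with +2.87 kb, and −16.1 kb (3.51 and 1.80) with +1.94 kb. In whole tissue, a higher peak from more cells with open chromatin cannot be told apart from more cutting in each cell.

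**Figure D1:**
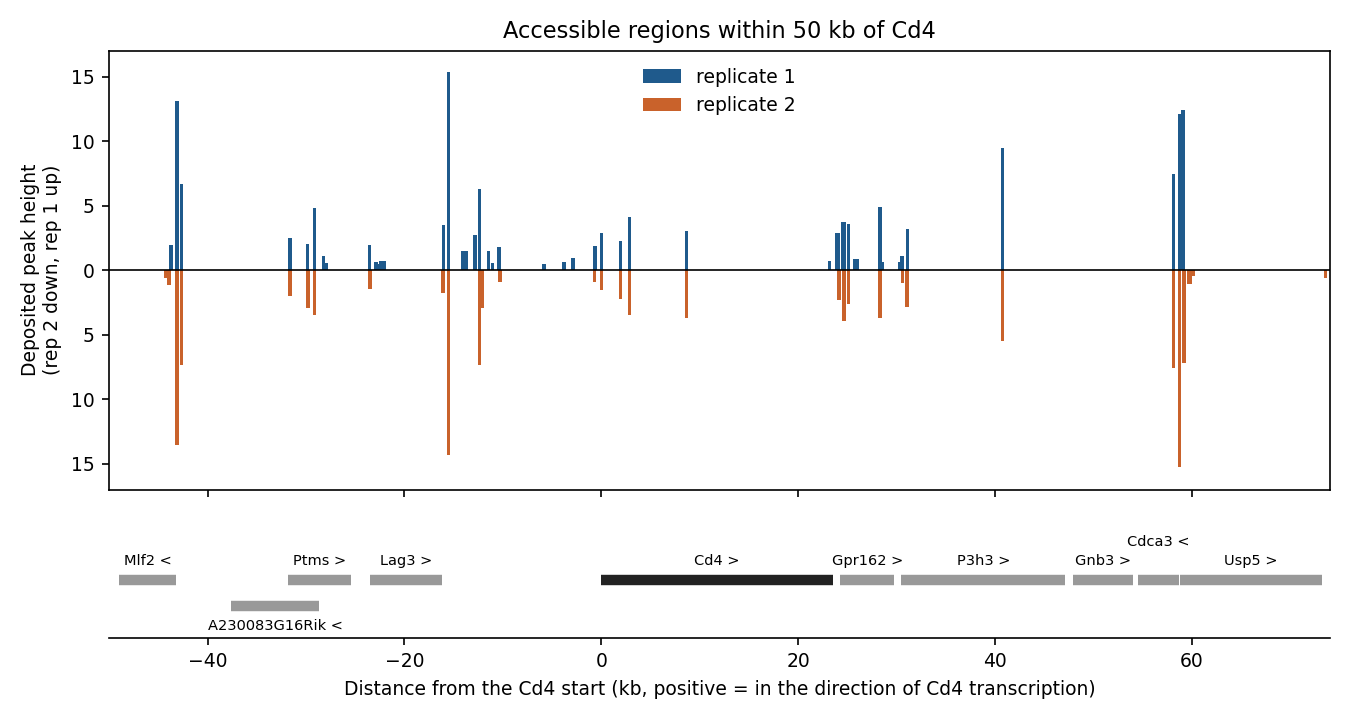
Deposited peak height (no unit) of each region against its distance from the Cd4 start in kb, with replicate 1 drawn upward and replicate 2 downward. Bars are widened to at least 0.35 kb, and arrowheads give the direction of each gene. Regions at −43.1, −15.5 and +58.7 kb stand above 12 in both replicates, and the Cd4 start stands at 2.88 and 1.51.

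The window held 48 separate regions when the libraries were joined, 26 of them found in both replicates, 17 in replicate 1 alone and 5 in replicate 2 alone. The other replicate overlapped 60.5% of the Cd4 regions of replicate 1, against 43.2% of all regions of that library. For replicate 2 the share was 83.9%, against 83.2% over the library and thus close to it. Both regions at the Cd4 start were found in both replicates, as were 3 of 4 in the rest of the gene body and 4 of 12 between Cd4 and Lag3. From Lag3 outward 7 of 14 were found in both, and from Gpr162 outward 10 of 16. Stricter peaks, the second and smaller peak file of each library, overlapped 32 of 43 Cd4 regions in replicate 1, against 68.1% of all regions. In replicate 2 they overlapped 25 of 31, against 65.1%.

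Among the shared regions, heights in the 2 animals followed each other closely. Over the 26 shared regions the log2 heights had a Pearson r of 0.93 and a Spearman rho of 0.93, given as a description because all points come from the same 2 libraries. Over all 57872 overlapping pairs of regions in the genome, r was 0.90. The shared Cd4 regions ran from 1.13 to 15.3 in replicate 1, with a median of 3.54, and from 0.933 to 15.2 in replicate 2, with a median of 3.19. The ratio of replicate 1 to replicate 2 had a median of 1.20 over them, against 1.43 over all pairs, and lay between 0.695 and 2.03. The largest ratio belonged to the region at −0.599 kb, next to the Cd4 start, and the smallest to a region in an intron of Ptms at −29.8 kb. These ratios are of undivided heights, of which 18 were higher in replicate 1 and 8 in replicate 2. With each height divided by the median of its library, the median ratio was 1.59, and 25 were higher in replicate 1 and 1 in replicate 2. This division changes the ratios of all pairs by the same factor, so their median stays above that of the Cd4 regions. How many of all pairs were higher in replicate 1 on this scale was not counted.

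**Figure D2:**
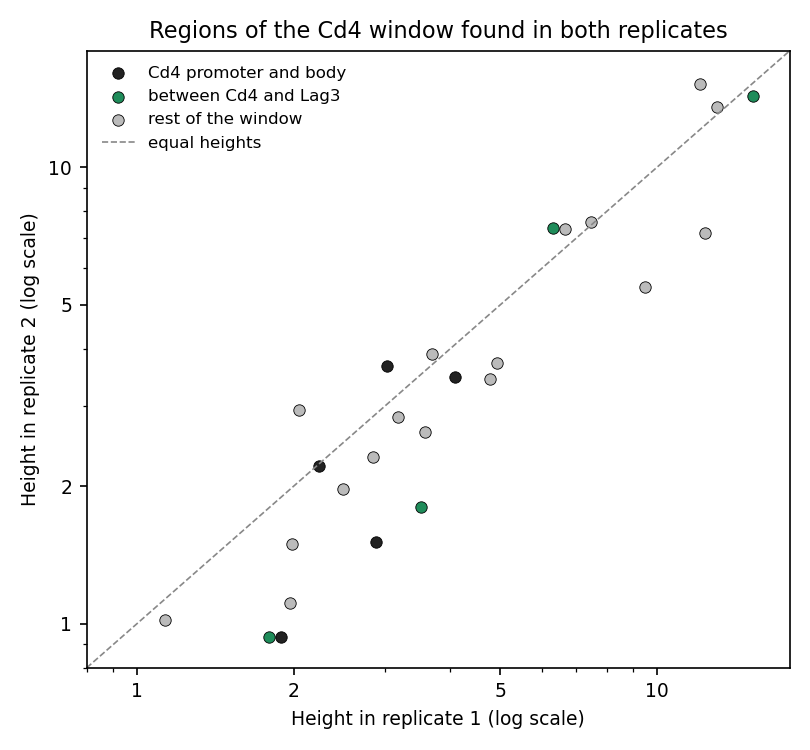
Deposited height, undivided, in replicate 2 against that in replicate 1 for the 26 regions found in both, on log axes, with the line of equal heights dashed. Of the 26 points, 18 lie below the line, being higher in replicate 1, and 8 lie above it.

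The 22 regions of a single library were mostly low. Those of replicate 1 alone ran from 0.498 to 2.75 with a median of 0.683, and those of replicate 2 alone from 0.481 to 2.94 with a median of 0.631. The 3 highest of replicate 1 all lay around −12 kb, at −12.8, −13.9 and −11.5 kb, with heights of 2.75, 1.52 and 1.46. The 3 highest of replicate 2 lay at −12.1 kb (2.94), at +59.7 kb in Usp5 (1.09) and at −44.2 kb in Mlf2 (0.631). Of the 17 regions of replicate 1 alone, 14 held a footprint of that library, against 75% of all its regions. Of the same 17, 1 had any base with a deposited false discovery rate (FDR) of the cut rate in replicate 2. That one was the region at −12.8 kb, where the lowest FDR in replicate 2 was 5.57e-04. How many regions of replicate 1 alone had such an FDR over the whole genome was not counted.

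At the Cd4 start the open region ran from −119 to +160 bp in replicate 1 and from −119 to +100 bp in replicate 2, over exon 1 and the bases before it. Relative to the median height of its library, 0.625 in replicate 1 and 0.828 in replicate 2, it stood at 4.61 and 1.82, a mean of 3.21 ± 1.97 (SD, n = 2). Its height in replicate 1 was 1.91 times that in replicate 2, and the neighbouring region at −0.599 kb had a ratio of 2.03. Among the 3 shared regions of the gene body this ratio lay between 0.826 and 1.18. The median over all pairs was 1.43, above these 3 regions and below the Cd4 start. Which of them was less repeatable therefore depends on the ratio taken as equal. Of all peaks of the library, 87.9% were lower than the Cd4 start in replicate 1 and 71.1% in replicate 2. Of the genes with a promoter peak, 36.7% had a lower one than Cd4 in replicate 1 and 22.5% in replicate 2. A promoter peak is any peak within 500 bp of an annotated start, and 63.4% of 21938 protein-coding genes had one in replicate 1 and 57.8% in replicate 2.

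Footprints at the Cd4 start fell at different bases in the 2 animals. Replicate 1 had 2 footprints in the region and replicate 2 had 5, and none of them met. Within the middle 200 bp, that of replicate 1 was CTTTGGCATTTTTAA at −102 to −88 bp. Those of replicate 2 included AACAACTGGGGGT at −72 to −60 bp, TTACGTC at −32 to −26 bp and CAGAGGA at −18 to −12 bp. A further footprint of replicate 2, ACGACCAGGCTT, crossed the start from −6 to +5 bp. AACAACTGGGGGT holds CAACTG, a word bound by MYB, a factor of thymocytes. Beside it, from −59 to −49 bp, stand overlapping GGGAGGG words, the form bound by the zinc finger protein MAZ, with no footprint of either replicate on them. The region at −0.599 kb had 5 footprints in replicate 1 and 3 in replicate 2, of which 2 of each met.

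The first intron held a pair of separate regions in both animals. The region at +1.94 kb ran from +1761 to +2120 bp in replicate 1 and from +1841 to +2020 bp in replicate 2. It stood at 3.58 times the library median in replicate 1 and 2.68 times in replicate 2, a mean of 3.13 ± 0.640 (SD, n = 2). Its sequence holds ACCACA at +1931 to +1936 bp, which is the RUNX word TGTGGT read on the other strand, and no footprint lay there in either replicate. It also holds 2 copies of the ETS word AGGAAG, at +1963 and +1991 bp, again without a footprint. A footprint over a run of G was shared, as GTGTGGCGGGGGG in replicate 1 and GGCGGGGGGCACA in replicate 2.

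The region at +2.87 kb stood at 6.54 times the library median in replicate 1 and 4.19 times in replicate 2, a mean of 5.36 ± 1.66 (SD, n = 2). It had 5 footprints in replicate 1 and 3 in replicate 2, and 2 were shared. One covers a GGGAGGG word at +2791 to +2797 bp, as AGACGGGGGAGGGGGACA in replicate 1 and GAGACGGGGGAGGGGGA in replicate 2. The other is TGACGTACACA in replicate 2, which lies within TCCCAGGGGTGACGTACACAGG in replicate 1. The word ATCAAAG at +2909 to +2915 bp, of the form bound by TCF1 and LEF1, factors of early T cells, lay within 5 bp of a footprint of replicate 2 alone.

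The third shared region of the gene body, at +8.67 kb, covered the end of exon 2, the second intron and the beginning of exon 3. Its height was 3.03 in replicate 1 and 3.67 in replicate 2. Relative to the median this was 4.84 and 4.43, a mean of 4.63 ± 0.294 (SD, n = 2). On this scale it was the narrowest spread among the shared regions of the Cd4 gene. In undivided heights the region at +1.94 kb differed least between the animals, with 2.24 and 2.22. In the second intron, CAGATGGGGCAAGGAGGAG of replicate 1 was met by ATGGGGCAAGGAGGAGGGGCAAAGGG of replicate 2. From +8.78 to +23.0 kb, a stretch of 14.3 kb that holds the following introns and exons, neither library had a region or a footprint. In exon 10, which ends the gene, replicate 1 alone had a region, with a height of 0.706.

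**Figure D3:**
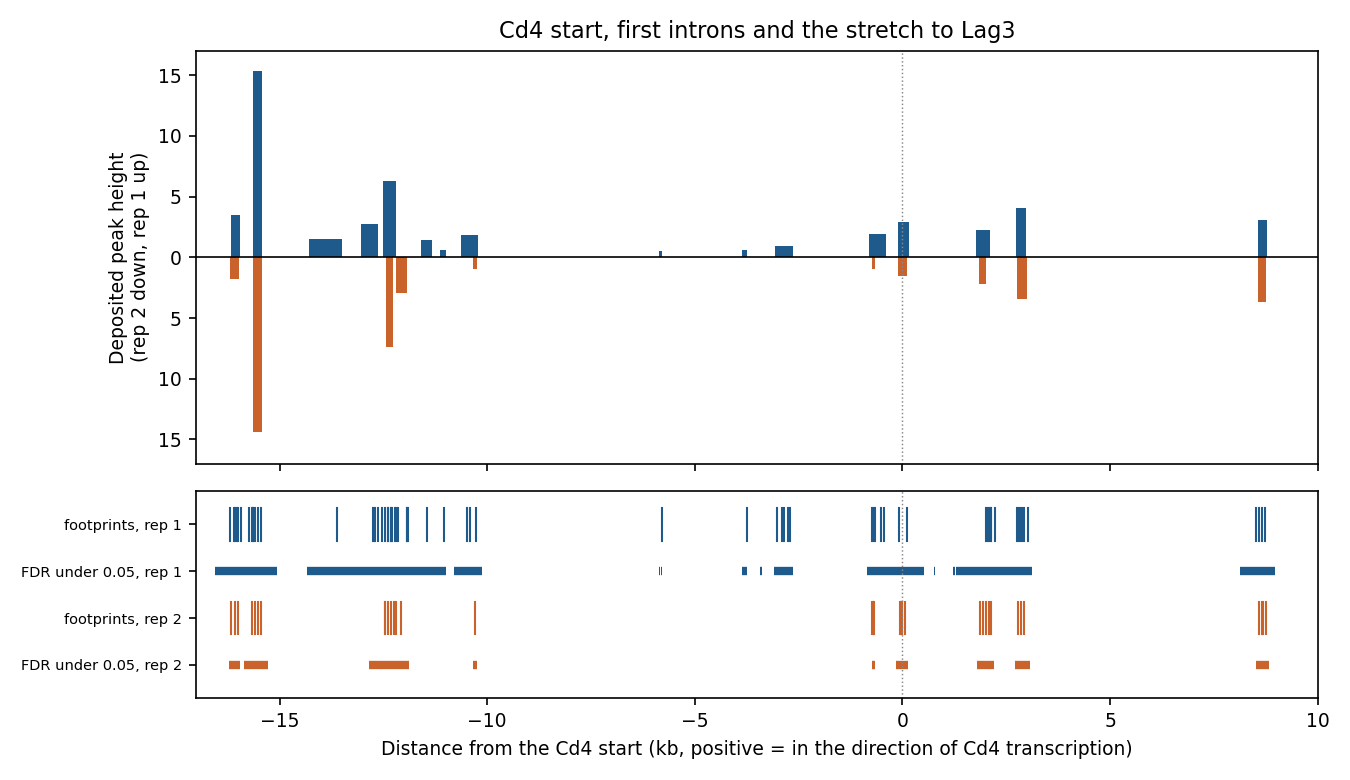
Top, deposited peak height (no unit) around the Cd4 start (dotted line), replicate 1 upward and replicate 2 downward. Bottom, footprints (ticks) and stretches with a deposited FDR of the cut rate under 0.05 (bars), in kb from the Cd4 start. Around −12 kb replicate 1 has a continuous stretch of 3195 bp, where replicate 2 has 971 bp.

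The region at −15.5 kb had the same limits in both animals, −15639 to −15420 bp, and lies 3′ of Lag3. It stood at 24.5 times the library median in replicate 1 and 17.3 times in replicate 2, a mean of 20.9 ± 5.07 (SD, n = 2). Of all peaks, 99.8% were lower in replicate 1 and 99.2% in replicate 2. The lowest deposited FDR was 3.61e-165 in replicate 1 and 1.92e-65 in replicate 2, against 9.94e-20 and 2.51e-05 at the Cd4 start. It had 4 footprints in replicate 1 and 3 in replicate 2, of which 3 of each met, and the unmatched one of replicate 1 was 7 bp long. The longest had 47 bp in replicate 1, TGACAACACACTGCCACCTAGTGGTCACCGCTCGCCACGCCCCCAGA, and 46 bp in replicate 2. Inside it, at −15540 to −15529 bp, stands GCCACCTAGTGG, a match to the word of CTCF, a zinc finger protein known for anchoring chromatin loops. A neighbouring region at −16.1 kb had heights of 3.51 and 1.80, and its footprint TCCCAGCCACTAGGGGCTCCCTTC had the same limits in both replicates.

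Around −12 kb the 2 libraries outlined the open chromatin differently. In replicate 1 an unbroken stretch with an FDR under 0.05 ran for 3195 bp, from −14337 to −11143 bp, with 4 regions and 19 footprints. In replicate 2 the stretch was 971 bp, from −12841 to −11871 bp, with 2 regions and 7 footprints. The core at −12.3 kb was shared, at 10.1 times the library median in replicate 1 and 8.87 times in replicate 2, a mean of 9.48 ± 0.855 (SD, n = 2). The region of replicate 2 at −12.1 kb lay inside the stretch of replicate 1, where the lowest FDR was 1.12e-50. It was thus open in both libraries although replicate 1 had no peak there. In the core, an E-box word, CAGCTG, of the form bound by E proteins such as those of Tcf3 and Tcf12, lay at −12314 to −12309 bp within 5 bp of footprints of both replicates. The last shared region of this zone, at −10.4 kb, had heights of 1.80 and 0.933.

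Stretches with an FDR under 0.05 were longer in replicate 1 at every shared region of the gene as well. A stretch of 1373 bp joined the Cd4 start and the region at −0.599 kb in replicate 1, where replicate 2 had separate stretches, of 280 bp at the start and of 80 and 10 bp at its neighbour. In the first intron a stretch of 1833 bp joined both regions in replicate 1, where replicate 2 had separate stretches of 415 and 366 bp. At +8.67 kb the lengths were 812 and 311 bp. Over the window, 24335 bp in replicate 1 and 11968 bp in replicate 2 had such an FDR. Peaks were listed for more positions genome-wide in replicate 1, and the part of this difference in the lengths was not tested.

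Further out, shared regions lay at the starts of neighbouring genes. At −43.1 and −42.7 kb, by the start of Mlf2, heights were 13.1 and 6.65 in replicate 1 and 13.6 and 7.32 in replicate 2, and another region at −43.8 kb had 1.97 and 1.11. Ptms, which encodes a small acidic chromatin protein, had regions at −31.6, −29.8 and −29.1 kb with heights of 2.49, 2.04 and 4.78 in replicate 1 and 1.97, 2.94 and 3.44 in replicate 2. The start of Lag3 at −23.6 kb had 1.99 and 1.49, the lowest promoter height among the neighbours with a promoter peak. Relative to the library median it reached 2.49 ± 0.970 (SD, n = 2), within the spread of Cd4.

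Downstream, regions at +24.1, +24.6 and +25.1 kb surround the start of Gpr162, a receptor-like gene. Their heights were 2.84, 3.69 and 3.58 in replicate 1 and 2.32, 3.90 and 2.62 in replicate 2. A region in a Gpr162 exon at +28.3 kb had 4.93 and 3.73, and those by the start of P3h3, a collagen-modifying enzyme gene, had 1.13 and 1.02 at +30.6 kb and 3.18 and 2.83 at +31.1 kb. The shared start of Cdca3 and Usp5 held regions at +58.1, +58.7 and +59.1 kb with heights of 7.47, 12.1 and 12.4 in replicate 1 and 7.59, 15.2 and 7.18 in replicate 2. Gnb3, a G protein subunit gene of photoreceptors, had no promoter peak in either library. By the highest peak within 500 bp of any annotated start, all of these genes with such a peak but Lag3 stood above Cd4 in both replicates. Single regions by these starts could be lower than the Cd4 start, such as that at +30.6 kb by P3h3 (1.13 and 1.02).

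In an intron of P3h3, at +40.8 kb, a region stood apart from any start, with heights of 9.49 in replicate 1 and 5.45 in replicate 2. It held the longest footprint of the window in both animals, 49 bp with the same limits, chr6:124847420-124847468. Read on the minus strand it is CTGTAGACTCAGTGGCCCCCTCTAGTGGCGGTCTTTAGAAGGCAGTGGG. It holds none of the words searched in their exact form. Read on the other strand, it matches every fixed base of the CTCF word given below except the last. Such near matches were not counted, and whether CTCF binds there was not tested.

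Of the footprints in the window, 85 of replicate 1 were met by a footprint of replicate 2, which is 45.5%, against 33.5% of all footprints of that library. In replicate 2, 82 were met, 66.1% against 61.8%. Their lengths ran from 7 to 49 bp in both libraries, with medians of 10 bp in replicate 1 and 11 bp in replicate 2. At least 1 footprint lay in 39 of 43 Cd4 regions in replicate 1, against 75% of all regions. In replicate 2 it was 27 of 31, against 84.1%. Footprints outside any region of their own library numbered 39 in replicate 1 and 27 in replicate 2. The share of all footprints that lie outside regions was not counted, so these numbers cannot be called particular to the window.

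The middle 200 bp of the 26 shared regions were searched on both strands for words of factors known in thymocytes, and for comparison the same was done in all 57871 shared regions with full sequence. The words were TGTGGT for RUNX, AGGAAG or CCGGAA for ETS, CAGCTG or CACCTG for E-boxes, and AGATAA or TGATAA for GATA. For TCF/LEF they were CTTTGAA or CTTTGAT, and for MYB CAACTG or CAACGG or TAACTG or TAACGG. The others were GGGCGG for SP/KLF, GGGAGGG for MAZ, TGGAAA for NFAT, TTCNNNGAA for STAT and TGGGAA for Ikaros. The AP-1 word was TGA, 1 free position and TCA. The CTCF word was CC, 3 free positions, AG, 2 free positions and GGC. Words may overlap each other, as the GGGAGGG words at the Cd4 start do, and a match is a run of letters and not a binding site.

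Among the 26 Cd4 windows, 7 held the CTCF word, against 20.9% of all windows, and in 5 it lay within 5 bp of footprints in both replicates, against 14.3%. These 5 were the regions at −42.7, −29.1, −15.5, +28.3 and +31.1 kb. None was at the Cd4 start or in its body, but few of the 26 windows lie there, so no pattern is read from these positions. The RUNX word was in 3 windows, against 17.2%, and never in footprints of both, against 3.41%. The ETS words were in 10 (40.3%), the E-box words in 11 (38.1%) and the MYB words in 8 (20.3%). The SP/KLF word was in 8 (26.2%), 5 of them in footprints of both (14.9%), and the MAZ word was in 7 (15.8%), 3 of them in footprints of both (5.53%). The NFAT word was in 4 (12.4%), the Ikaros word in 3 (15.8%), the TCF/LEF words in 2 (6.51%), and the STAT and AP-1 words in 1 each (4.76% and 5.10%). GATA words were in none, against 8.86%. With 26 windows, most of these counts are close to the shares of all windows, and none was tested.

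Compared with the other coreceptor and T cell receptor genes, Cd4 had the lowest promoter height. Relative to the library median, Cd4 stood at 3.21 ± 1.97 (SD, n = 2 here and in the values that follow). Cd8a and Cd8b1, which encode the chains of the CD8 coreceptor, stood at 9.71 ± 0.0113 and 11.0 ± 0.150. Among the CD3 genes, whose products are the signalling chains of the receptor, Cd3d stood at 5.19 ± 3.96, Cd3e at 6.55 ± 2.33 and Cd3g at 10.1 ± 1.59. Lck stood at 10.4 ± 0.984. In order from low to high these are Cd4, Cd3d, Cd3e, Cd8a, Cd3g, Lck and Cd8b1. The values of Cd4 (4.61 and 1.82) overlapped those of Cd3d (7.99 and 2.39) and lay below those of Cd3e (8.20 and 4.90).

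**Figure D4:**
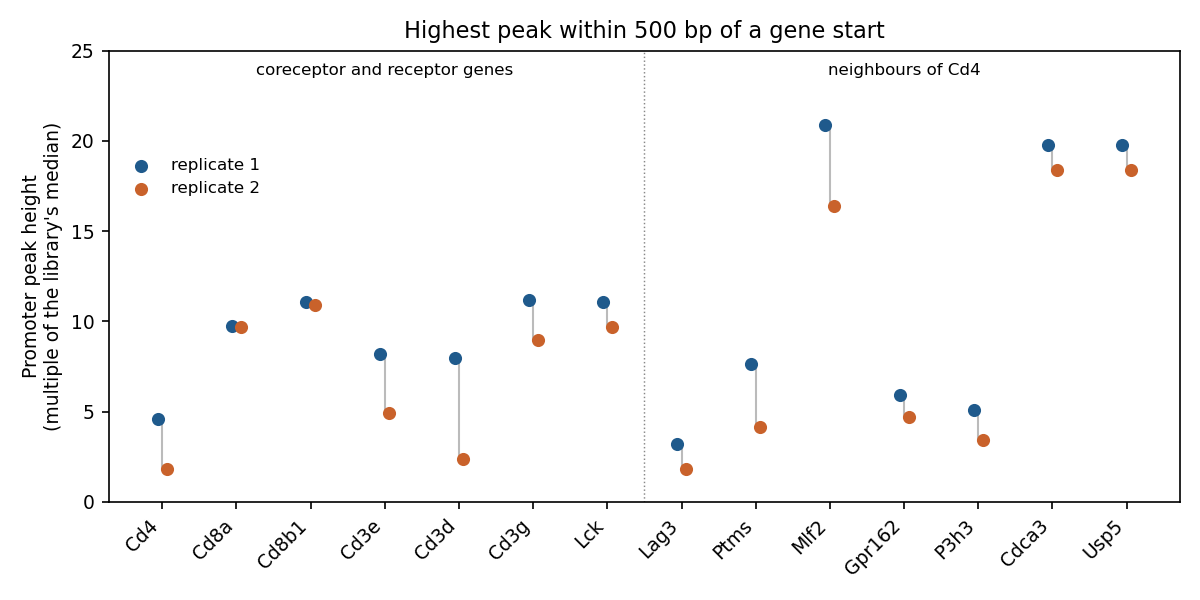
Promoter peak height as a multiple of the library's median height, for Cd4, other coreceptor and receptor genes and the neighbours of Cd4 with a promoter peak, with 1 point per replicate. Cd4 (4.61 and 1.82) and Lag3 (3.18 and 1.80) hold the lowest places, and Mlf2, Cdca3 and Usp5 the highest.

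Cd4 differed from these genes in how far the highest distal peak near it exceeded its promoter, a comparison chosen after the values were seen. Distal peaks are those over 1 kb from any protein-coding start, here within 20 kb of the Cd4 start. The highest, at −15.5 kb, was 5.31 times as high as the Cd4 promoter peak in replicate 1 and 9.53 times in replicate 2. The same ratio was 1.14 and 1.00 for Cd8a, 1.24 and 1.65 for Cd3d, and 1.07 and 0.946 for Lck. Among genes with a promoter peak, 20.4% in replicate 1 and 12.3% in replicate 2 had a higher distal peak at all. A ratio as large as that of Cd4 was reached by 2.79% and 0.26% of them. The peak at −15.5 kb also lies within 20 kb of the Lag3 start. The Lag3 promoter peak, at 1.99 and 1.49, was lower than that of Cd4, at 2.88 and 1.51. The excess is thus not particular to Cd4.

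The Cd4 window was also rich in regions, with 43 in replicate 1 and 31 in replicate 2, a mean of 37 ± 8.49 (SD, n = 2). The median window of a protein-coding gene, built the same way, held 12 and 7. Fewer regions than around Cd4 were found around 98.2% of genes in replicate 1 and 98.5% in replicate 2. Per 100 kb of window, Cd4 had 34.8 and 25.1 regions, against medians of 8.42 and 4.79. The windows of Cd8a and Cd8b1, which overlap each other, held 83 and 90 regions in replicate 1 and 25 and 37 in replicate 2. That of Cd3e held 44 and 30, and that of Lck 35 and 34. The Cd4 count includes the starts of the neighbouring genes, and windows of neighbouring genes share regions.

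**Figure D5:**
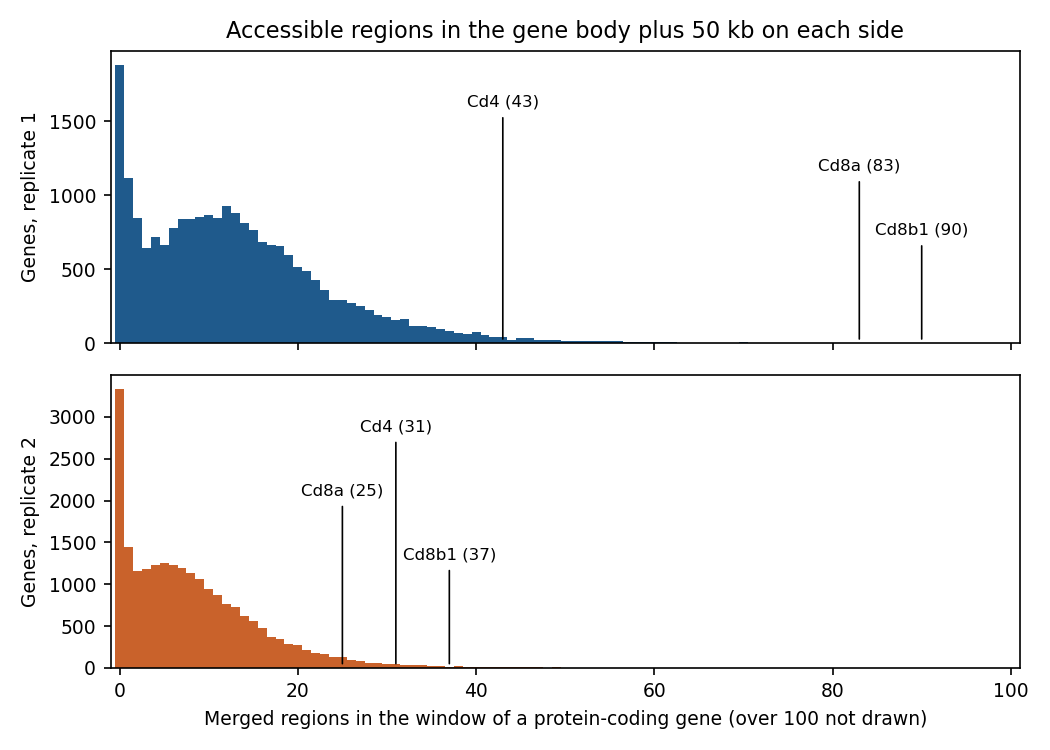
Number of protein-coding genes (vertical axis) by the number of regions in the gene body and 50 kb on each side (horizontal axis), for replicate 1 (top) and replicate 2 (bottom). Lines mark Cd4 at 43 and 31, Cd8a at 83 and 25, and Cd8b1 at 90 and 37.

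All 20 listed genes for factors known to act on Cd4 regulatory DNA had a promoter peak in both replicates, against 63.4% and 57.8% of all protein-coding genes in replicates 1 and 2. They include Runx1, Runx3 and Cbfb, the RUNX proteins and their partner, which act at the silencer, and Zbtb7b, which encodes ThPOK, the factor of the CD4 fate. Relative to the library median, the lowest promoter was that of Zbtb7b at 2.06 ± 0.416 and the highest that of Smarca4, the ATPase of the BAF remodelling complex, at 22.0 ± 0.401 (SD, n = 2). Runx1 stood at 6.53 ± 3.45 and Runx3 at 3.30 ± 1.14. Promoter peaks lay at 10 of 10 listed thymocyte genes in both replicates. The list was chosen with earlier results of these data known, so this does not test the label of the tissue. Of the genes of other cells that the thymus holds, 2 of 8 of myeloid and dendritic cells and 2 of 6 of thymic epithelium had one in both, shares below those of all genes. Foxn1 and Psmb11, which define thymic epithelium, and Csf1r, which defines myeloid cells, had none. Aire and Ly75 of the epithelium list did have one, at 6.84 ± 2.10 and 7.83 ± 1.27 times the library median (SD, n = 2), against 3.21 ± 1.97 for Cd4. Itgam and Lyz2 of the myeloid list stood at 1.59 ± 1.06 and 0.719 ± 0.424, and Gata1, of erythroid cells, at 1.23 ± 0.615. Among B cell genes, Pax5 had a promoter peak in both replicates, at 4.35 ± 0.829, and Cd79b and Blnk had one in replicate 1 alone. The part of these other cells in the Cd4 regions was not tested.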

How the data were processed

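The labels describe DNase-seq of thymus tissue in 2 biological replicates, and all files use mm10. Peaks and footprints were called per library and not pooled, per the README text deposited with each sample. The signal column of each peak file is the height of a peak as deposited by the authors, after a scaling the sources used here do not describe. The FDR lists, of the q-value kind as deposited, hold values under 0.05, and the footprint lists hold the constant 0.01. The aligner, callers, versions and read numbers are not given in the sources used here, so the depth is unknown and no interval is given. Whether footprints were corrected for the sequence preference of DNase I, and how CAST/EiJ reads were placed, is not given either.

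Of the pair of peak files of each library the one with more peaks was used. Peaks sharing at least 1 bp were joined, and a region found in both replicates shares at least 1 bp. Genes were the 21938 protein-coding genes of GENCODE M21, without the mitochondrial ones. Footprints were extended by 5 bp per side for the words. Intervals were handled in Python 3.11.15 with numpy 2.4.6, and the helper functions were tested on simulated intervals. Cd4, its protein-coding neighbours in the window, Cd8a, Cd8b1, Cd3e, Cd3d, Cd3g and Lck were named by rule, as was every region shared by the replicates. The gene, the lists and the words were chosen with earlier results of these data known. With 1 group of 2 samples no test was made. Some listed genes and sequences are not reported here. Replicates are samples that the labels number separately.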

Additional observations from a re-analysis of the deposited data

How the results depend on the processing

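Of 43 values under other settings, 37 stayed within the spread of the replicates or within 1.5 times the count, and 6 moved. The 37 include the values of single replicates, which with n = 2 always lie within that spread and so say nothing about stability. The Cd4 window held more regions than 98.3% of genes as the mean of the replicates. This became 98.7% with the stricter peaks, 97.4% with 25 kb on each side, 97.7% with 100 kb, and 99.0% with equal numbers of peaks. With 25 kb on each side, regions found in both replicates numbered 17 instead of 26, and footprints found in both averaged 47.5 instead of 83.5, since a shorter window holds fewer. By single replicate, regions ran from 31 to 43, the share overlapped from 60.5% to 83.9%, the Cd4 promoter over the median from 1.82 to 4.61, footprints from 124 to 187, and the share of genes with fewer regions from 98.2% to 98.5%. No paired analysis was possible because the libraries form 1 group. With the depth unknown, a region missing from replicate 2 may be below what that library could show.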
